A study of Homo sapiens with 6 samples.

Results

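The genes described here form the oxygen-sensing circuit of the cell: HIF1A, EPAS1, ARNT, VHL, HIF1AN, EGLN1, EGLN2, EGLN3, CA9 and VEGFA. They were chosen by name, with earlier results of these data known. A row of the expression table was assigned to each through the platform annotation. Of these 10 genes, 8 were measured among 23786 rows, and EGLN2 and CA9 are not analysed here. The cells were HSC3, an established human oral squamous carcinoma line, in 2 groups. The treated group was 3 wells given 0.1 μM E7386 dissolved in DMSO, and its control was 3 wells given 0.1% DMSO alone. E7386 is described as a small molecule that acts on the partnership of β-catenin with CREB-binding protein (CBP), a transcriptional coactivator. All wells were treated at about 50% confluency, 12 to 24 hours after seeding, and harvested 48 to 64 hours later. No source used here states the oxygen level of the cultures. Only 1 dose of 1 line was tested. The titles name the 3 wells of each group as biological replicates, and the growth protocol describes them as separate wells seeded with the line. No label mentions separate experiments or passages, so p-values here reflect well-to-well spread, part of which may be technical.

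In oxygenated cells the prolyl hydroxylases encoded by the EGLN genes use molecular oxygen to modify the alpha subunits of hypoxia-inducible factor (HIF), which HIF1A and EPAS1 encode. The VHL protein then binds the modified subunit and directs its destruction, and the asparagine hydroxylase encoded by HIF1AN blocks the recruitment of CBP and its paralog p300 to subunits that remain. When oxygen is short the alpha subunits persist, pair with the constant subunit encoded by ARNT and activate genes such as VEGFA, CA9 and EGLN3. The alpha subunits are regulated mainly through protein stability, so their transcripts do not report the amount of active factor, and neither protein nor hydroxylation was measured.

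The arrays gave log2 expression values, in which 1 unit is a 2-fold difference, and their number, 3 per group, limits the precision. The level of the median row over all wells was 3.75, the array medians lay between 3.74 and 3.79, and the median standard deviation (SD) within a group was 0.13. All 8 measured members averaged above the median row, and no filter on low values was applied. A gene was called when its adjusted p was under 0.05 in limma, a linear model fitted to every row with Benjamini-Hochberg adjustment over all rows. Differences are E7386 minus DMSO, with the standard error (SE) of that model.

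Epithelial markers were measured in keeping with the label. All 11 measured squamous epithelial markers lay above the median row, and their mean level was 9.04 to 9.12 in E7386 wells and 9.27 to 9.34 in DMSO wells. Of the 11, 4 fell, 1 rose and 6 did not pass. The share called was 45.5%, against 33.2% of rows above the median row and 18.6% over all rows. The basal keratin gene KRT14 fell by 1.64 ± 0.11 (SE) on the log2 scale, KRT5 fell by 0.79 ± 0.081, JUP fell by 0.53 and PKP3 fell by 0.48, while the desmosomal cadherin gene DSG3 rose by 0.59. Of the fibroblast markers 2 of 10 averaged above the median row, of the leukocyte markers 1 of 9, and of the endothelial markers 2 of 10. The mean levels of these 3 lists were 2.74 to 2.80, 2.68 to 2.87 and 2.34 to 2.43 in E7386 wells, and 2.77 to 3.08, 2.78 to 2.90 and 2.50 to 2.53 in DMSO wells. The defining leukocyte gene PTPRC averaged 1.37 in E7386 wells and 1.20 in DMSO wells, and the endothelial gene PECAM1 averaged 1.46 in both.

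Of the 8 measured members, EPAS1 and VEGFA rose and EGLN3 fell with E7386. HIF1A, ARNT, VHL, HIF1AN and EGLN1 did not pass the test. The 3 calls are 37.5% of the measured members, against 18.6% called over all rows of the table (9.93% higher and 8.69% lower) and 33.2% of the 11893 rows above the median level, where all 8 members lie. The second of these shares was added after the data were seen, and the share of members called lies near it. At or below the median level 4% of rows were called. For the gene lists below, the share at like level is these 2 shares weighted by how many genes of the list lie above and below the median row. It splits rows only at the median, so it does not match genes that lie far above it. The members and lists were chosen with earlier results of these data known. A share above its background may partly reflect that choice. By absolute difference among 23786 rows, the called genes EGLN3, EPAS1 and VEGFA ranked 59, 602 and 2033. The other members ranked 7538 (EGLN1), 8409 (VHL), 8551 (HIF1A), 11925 (ARNT) and 19375 (HIF1AN). EPAS1 and EGLN3 passed the test with a difference of at least 2-fold, as did 2.59% of all rows. In a culture of one line, fewer cells of a kind and less RNA per cell cannot be told apart.

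**Figure D1:**
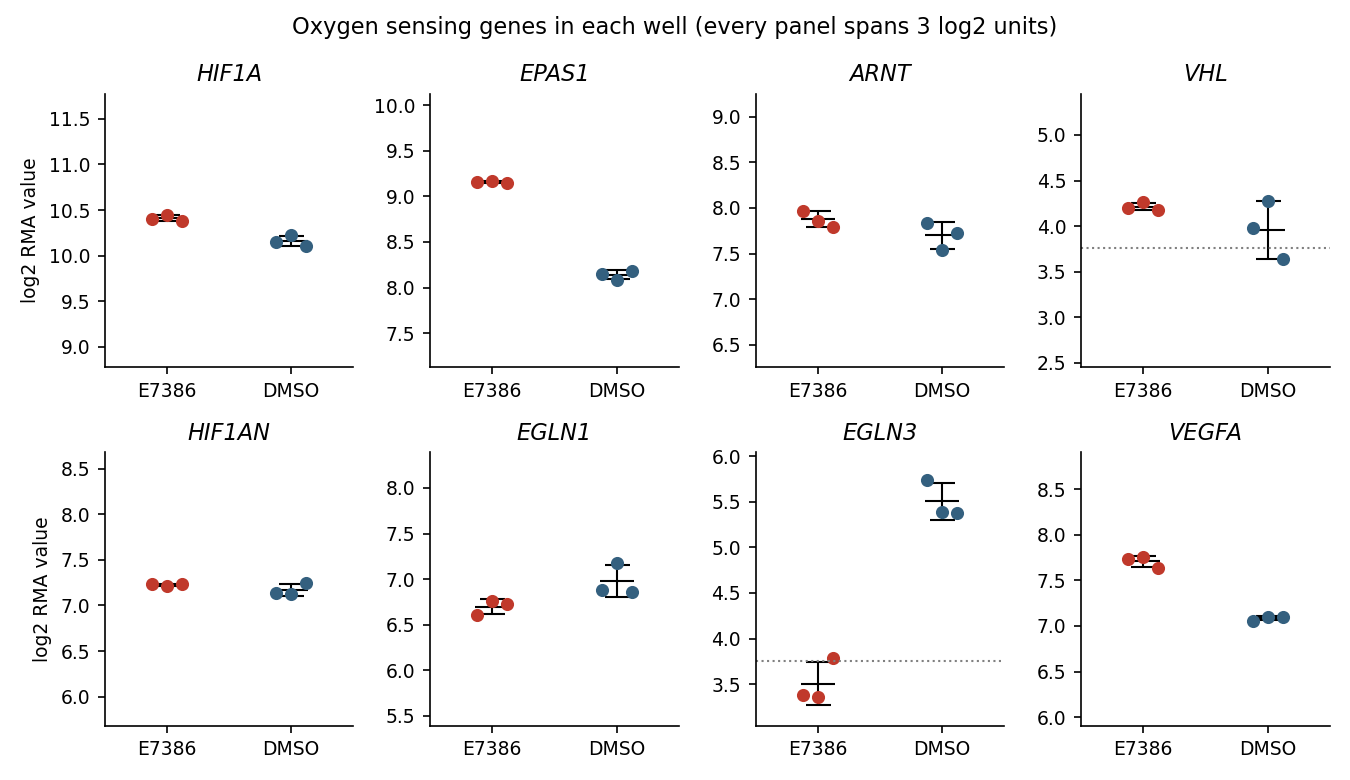
Log2 RMA values of the 8 measured oxygen-sensing genes in each well, with E7386 wells on the left and DMSO wells on the right of every panel; points are wells, horizontal marks are means and bars are 1 SD (n = 3). The dotted line is the level of the median row, 3.75, and EGLN3 crosses it: its E7386 wells lie between 3.36 and 3.78 and its DMSO wells between 5.38 and 5.74. The third DMSO well of VHL, at 3.63, also lies below the line.

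Among the alpha subunits, EPAS1, which encodes the subunit also called HIF2A, rose. It measured 9.15, 9.17 and 9.15 in the E7386 wells and 8.14, 8.09 and 8.19 in the DMSO wells. The groups were far apart and the E7386 wells nearly coincided, with an SD of 0.010 against 0.050 in DMSO wells. The difference was 1.02 ± 0.081 (SE), a 2.02-fold rise (limma adjusted p = 2.7e-04), and it stayed between 0.99 and 1.04 in 13 alternative fits, all of which called it.

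HIF1A, which encodes the most widely expressed alpha subunit, measured 10.41, 10.45 and 10.38 in the E7386 wells and 10.15, 10.22 and 10.11 in the DMSO wells. Every E7386 well lay above every DMSO well, but the difference was 0.25 ± 0.083, with a 95% interval of 0.06 to 0.44, and did not pass (limma adjusted p = 0.081). HIF1A was called when rows below the median were left out (adjusted p = 0.021) and when the prior variance followed intensity, without and with a robust prior (0.0033 and 0.0031). The same separation of wells was seen in 5 of the 8 members and in 35.2% of all rows. All 8 lie above the median row, and the share among such rows was not counted.

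The difference between treatments was 0.77 larger for EPAS1 than for HIF1A. The within-well gap, EPAS1 minus HIF1A, averaged -1.26 ± 0.022 in E7386 wells and -2.02 ± 0.11 in DMSO wells (SD, n = 3 each). An exact two-sided permutation test over wells gave p = 0.1, the smallest that 20 assignments of 3 wells against 3 allow, so this design cannot reach the 0.05 threshold. The adjusted value over the 2 contrasts run was also 0.1, and 2 further contrasts planned with EGLN2 and CA9 were not run.

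ARNT, the partner of both alpha subunits, measured 7.97, 7.86 and 7.80 in the E7386 wells and 7.84, 7.54 and 7.72 in the DMSO wells. The groups overlapped, and the difference of 0.17 ± 0.11 did not pass, with an interval of -0.08 to 0.42 (limma adjusted p = 0.34). A 1.34-fold rise of ARNT would still lie inside that interval.

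The list of HIF subunits and related genes of the same transcription factor family had 5 of 12 members called, all higher, against 9.93% of all rows called higher. In both directions 41.7% of the list was called, against 21.1% at like level. The median difference of the list was 0.21, against -0.016 over all rows. Besides EPAS1, these were NPAS2, BMAL1, AHR and SIM2. NPAS2, a partner of the circadian clock, was at 5.60 ± 0.094 with E7386 and 3.84 ± 0.16 with DMSO (SD, n = 3 each), close to the median row, a rise of 1.75 ± 0.11 (SE, limma adjusted p = 1.2e-04). BMAL1, its clock partner, rose by 0.89 ± 0.11 and the aryl hydrocarbon receptor gene AHR by 0.78 ± 0.081. SIM2, named after its values were seen, rose by 0.56 ± 0.090. HIF3A and ARNT2 averaged 2.95 and 2.45 in E7386 wells and 2.95 and 2.43 in DMSO wells, below the median row, where RMA compresses differences. The values come without a detection call, so whether either gene was expressed cannot be told.

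Among the oxygen sensors, EGLN3 fell. EGLN3 encodes a prolyl hydroxylase that is itself induced by HIF in many cell types. It measured 3.38, 3.36 and 3.78 in the E7386 wells and 5.74, 5.39 and 5.38 in the DMSO wells. The lowest DMSO well stood 1.60 above the highest E7386 well. The difference was -2.00 ± 0.15 (SE), a 3.99-fold fall (limma adjusted p = 2.3e-04). The E7386 mean of 3.51 lies below the median row, where RMA compresses differences, so the size of the fall is uncertain.

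EGLN1, which encodes the main prolyl hydroxylase of oxygenated cells, measured 6.61, 6.76 and 6.73 in the E7386 wells and 6.89, 7.18 and 6.86 in the DMSO wells. The E7386 wells lay below the DMSO wells without overlap, yet the difference of -0.28 ± 0.11 did not pass (limma adjusted p = 0.15), and none of the 13 alternative fits called it. Its interval, -0.54 to -0.01, lies wholly above that of EGLN3, -2.35 to -1.64. The within-well gap, EGLN3 minus EGLN1, averaged -3.19 ± 0.23 in E7386 wells and -1.47 ± 0.32 in DMSO wells (SD, n = 3 each), a difference of -1.72. The exact two-sided permutation p was 0.1, again the smallest this design allows.

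HIF1AN, the asparagine hydroxylase gene, measured 7.23, 7.21 and 7.23 in the E7386 wells and 7.14, 7.12 and 7.24 in the DMSO wells. Its wells overlapped, and it had the smallest difference of the 8 members at 0.06 ± 0.083, with an interval of -0.14 to 0.25 (limma adjusted p = 0.72). A change of more than 1.19-fold in either direction lies outside this interval.

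**Figure D2:**
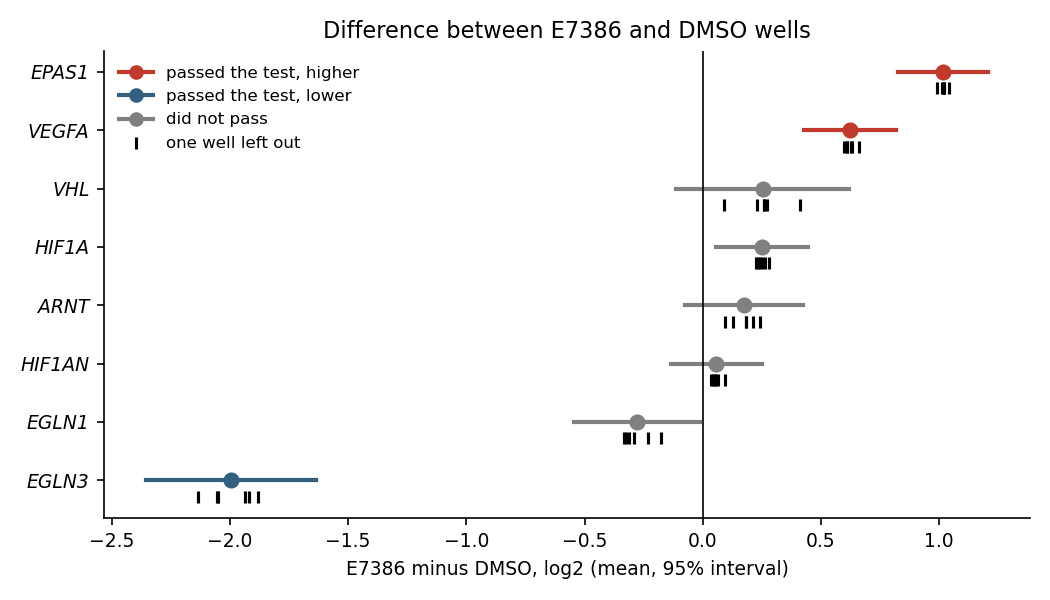
Difference E7386 minus DMSO on the log2 scale for each member, with its 95% interval from limma (n = 3 wells per group); ticks below each bar are the differences with one well left out. EPAS1 and VEGFA lie to the right of 0 and EGLN3 to the left at -2.00, and leaving out any one well moved EGLN3 only between -2.13 and -1.88.

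The promoters of 3 members are shown because they belong to the member that fell most, its measured paralog and the member that rose most, and they can be searched for the short core that HIF recognises, ACGTG or GCGTG. The windows run from 250 bases before to 50 bases after the start of the transcript and are RefSeq sequences of build GRCh38.p14, available for 6 of the 8 measured members. Capitals mark either core, searched on both strands (CACGT and CACGC on the printed strand). The EGLN3 window is chr14:33951025-33951324 on the minus strand, the EGLN1 window chr1:231422238-231422537 on the minus strand and the EPAS1 window chr2:46297157-46297456 on the plus strand.
EGLN3: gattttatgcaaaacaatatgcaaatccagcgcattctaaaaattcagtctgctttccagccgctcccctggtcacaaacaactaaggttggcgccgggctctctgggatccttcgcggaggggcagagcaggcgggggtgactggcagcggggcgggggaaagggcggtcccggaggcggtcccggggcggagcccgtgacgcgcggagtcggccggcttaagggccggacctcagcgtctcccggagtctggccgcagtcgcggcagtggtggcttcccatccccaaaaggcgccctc
EGLN1: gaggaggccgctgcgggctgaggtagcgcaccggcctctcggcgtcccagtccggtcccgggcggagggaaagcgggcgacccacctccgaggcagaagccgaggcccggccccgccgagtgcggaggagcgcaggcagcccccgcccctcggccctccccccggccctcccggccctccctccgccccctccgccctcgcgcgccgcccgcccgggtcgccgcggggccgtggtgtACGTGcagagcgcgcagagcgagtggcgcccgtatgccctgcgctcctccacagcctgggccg
EPAS1: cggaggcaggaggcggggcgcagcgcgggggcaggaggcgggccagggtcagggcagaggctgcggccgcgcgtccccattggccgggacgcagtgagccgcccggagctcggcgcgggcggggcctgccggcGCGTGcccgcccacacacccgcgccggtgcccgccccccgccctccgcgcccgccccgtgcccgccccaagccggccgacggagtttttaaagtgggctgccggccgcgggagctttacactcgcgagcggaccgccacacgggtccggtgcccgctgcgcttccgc

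The EGLN3 window holds neither core. The EGLN1 window holds ACGTG at -13 and the EPAS1 window GCGTG at -117, positions being counted from the transcript start. The HIF1A window holds GCGTG at -204, and those of ARNT and HIF1AN hold neither. One core or the other occurs in 48.4% of 35116 RefSeq promoter windows of the same length, ACGTG in 21.4% and GCGTG in 36.5%, so 3 of 6 is close to the share over all promoters. A match is a description of letters, and the windows say nothing of sites further away.

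The wider list of oxygen-dependent hydroxylases and demethylases went both ways. Of 25 measured genes 5 rose and 4 fell, with a median difference of 0.01. These are 36% of the list, near the 32.1% at like level, against 18.6% over all rows. P4HA2, a subunit of the collagen prolyl hydroxylase, rose by 1.21 ± 0.084 (SE, limma adjusted p = 1.6e-04), while its paralog P4HA1, named after its values were seen, differed by -0.02 ± 0.10. PLOD3, a collagen lysyl hydroxylase, rose by 0.78 ± 0.094. Among enzymes of chromatin and DNA, the histone demethylase gene KDM6B rose by 0.63 ± 0.12 and the DNA demethylation gene TET3 by 0.60 ± 0.093. ADO, an oxygen-using enzyme of N-terminal cysteines named after its values were seen, rose by 0.59 ± 0.083. TET1, a paralog of TET3, fell to 3.62 ± 0.13 with E7386, against 4.66 ± 0.21 with DMSO (SD, n = 3 each), and its E7386 level is below the median row. The histone demethylase genes KDM3B and KDM5A fell by 0.42 ± 0.088 and 0.38 ± 0.087. The KDM3B call was lost without the second or the third E7386 well (limma adjusted p = 0.059 and 0.061), and the KDM5A call without any one of 5 wells, all but the second DMSO well (0.052 to 0.084).

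VHL, which encodes the substrate-binding part of the ubiquitin ligase that destroys the alpha subunits, measured 4.20, 4.26 and 4.18 in the E7386 wells and 3.98, 4.27 and 3.63 in the DMSO wells. The DMSO wells spread over a range that contained all 3 E7386 wells, with an SD of 0.32 against 0.041 in E7386 wells. The difference was 0.25 ± 0.16 and did not pass, with an interval of -0.11 to 0.62 (limma adjusted p = 0.34). VHL lies near the median row, so a change could be compressed.

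In the list of the VHL ligase and factors that act on HIF stability or activity, 3 of 19 measured genes rose and 2 fell, with a median difference of 0.05. These are 26.3% of the list, against 30.2% at like level and 18.6% over all rows. CITED2, a HIF-induced competitor for the coactivator that HIF uses, rose by 0.52 ± 0.098 (limma adjusted p = 0.0093). ELOB, an elongin subunit of the VHL ligase, rose by 0.47 ± 0.12 and CREBBP, which encodes CBP, by 0.45 ± 0.10. ELOC, the partner elongin subunit named after its values were seen, differed by -0.28 ± 0.17 and did not pass (limma adjusted p = 0.33). HSP90AB1, a chaperone of the alpha subunits, fell by 0.62 ± 0.14 and FKBP8, an EGLN1-binding protein, fell by 0.43 ± 0.087. The ligase scaffold and ring genes CUL2 and RBX1, named after their values were seen, differed by -0.26 ± 0.10 and -0.36 ± 0.10 and did not pass (limma adjusted p = 0.14 and 0.053). The calls of ELOB, CREBBP, HSP90AB1 and FKBP8 were each lost in at least 1 fit with one well left out (limma adjusted p = 0.051 to 0.099). Of 13 alternative fits, ELOB lost its call in 6, CREBBP in 3, HSP90AB1 in 2 and FKBP8 in 1. The list had 2 calls without the second DMSO well, 3 without the first DMSO well or any one E7386 well, and 9 or 10 when rows below the median were left out or the prior followed intensity.

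VEGFA, the vascular growth factor gene and a classical HIF target, rose. It measured 7.73, 7.76 and 7.63 in the E7386 wells and 7.06, 7.10 and 7.10 in the DMSO wells. The gap between the groups was 0.54 and the spread within each was small, with an SD of 0.064 for E7386 and 0.023 for DMSO. The rise was 0.62 ± 0.083 (SE), or 1.54-fold (limma adjusted p = 0.0024), and all 13 alternative fits called it. EGLN3 and VEGFA, both named as HIF targets, thus moved in opposite directions in the same wells.

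In the list of the VEGF family, its receptors and angiogenic ligands 7 of 18 measured genes rose, VEGFA among them, 1 fell and 10 did not pass, with a median difference of 0.18. The share called was 44.4%, against 20.2% at like level and 18.6% over all rows. The ligand genes ANGPT1, ANGPT2, ANGPTL4, ADM and PDGFA, named after their values were seen, were among those that did not pass. FGF2, a fibroblast growth factor gene, was at 8.26 ± 0.047 with E7386 and 6.38 ± 0.10 with DMSO (SD, n = 3 each), a 3.67-fold rise (limma adjusted p = 5.8e-05). PDGFB rose by 1.44 ± 0.15 (SE), the VEGF co-receptor gene NRP1 by 0.92 ± 0.099 and VEGFB by 0.90 ± 0.084. The placental growth factor gene PGF fell by 0.45 ± 0.11 but lay below the median row in both groups, at 3.16 with E7386 and 3.62 with DMSO, and lost its call in 6 of 12 alternative fits (limma adjusted p = 0.052 to 0.10). The endothelial receptor genes KDR and FLT1, named after their values were seen, lay near the bottom of the scale, at 1.76 and 2.01 in E7386 wells and 1.78 and 1.94 in DMSO wells.

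**Figure D3:**
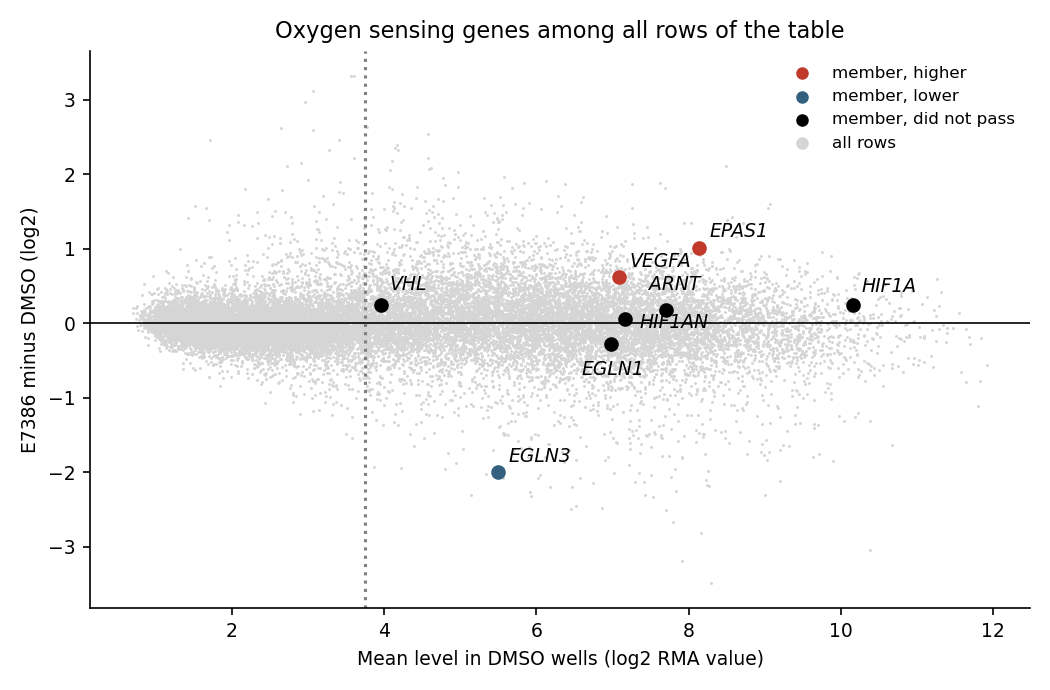
Difference E7386 minus DMSO (log2, vertical axis) against the mean level in DMSO wells (log2 RMA value, horizontal axis) for all 23786 rows in grey and the 8 members in colour; the dotted line is the level of the median row. EGLN3, at -2.00, lies near the lower edge of rows of its level, and the members that did not pass lie within 0.28 of 0.

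HIF targets outside glucose metabolism were divided. Of 46 measured genes 12 rose and 7 fell, with a median difference of -0.024. The share called was 41.3%, against 26.9% at like level and 18.6% over all rows. Besides P4HA2, those with the largest rises were STC2, a secreted glycoprotein, by 1.88 ± 0.10, the heme oxygenase gene HMOX1 by 1.25 ± 0.15 and the lysyl oxidase gene LOX by 0.87 ± 0.10. Besides EGLN3, the largest falls were those of the transcriptional repressor gene BHLHE40 at -1.17 ± 0.11, the mitophagy receptor gene BNIP3 at -0.97 ± 0.090 and the mTORC1 inhibitor gene DDIT4 at -0.97 ± 0.11. The adjusted p of these 6 genes in limma was at most 0.0016. NDRG1, ADM and KDM3A, widely used hypoxia markers named after their values were seen, differed by 0.04 ± 0.082, -0.17 ± 0.096 and -0.03 ± 0.10 and did not pass (limma adjusted p = 0.80, 0.30 and 0.90). They do not stand for the whole list. ANKRD37 and ERO1A, also named after their values were seen, differed by -0.93 ± 0.12 and 0.45 ± 0.086 and passed (limma adjusted p = 0.0020 and 0.011). No oxygen-deprived wells are part of this comparison.

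Among HIF targets of glucose metabolism more genes fell than rose, and as many did not pass as were called in either direction. Of 22 measured genes 9 fell, 2 rose and 11 did not pass, with a median difference of -0.20. The share called was 50%, against 29.3% at like level and 18.6% over all rows. LDHA, which makes lactate from pyruvate, was at 6.16 ± 0.26 with E7386 and 7.25 ± 0.083 with DMSO (SD, n = 3 each), and fell by 1.09 ± 0.14 (SE, limma adjusted p = 0.0020). GPI, an isomerase at the head of glycolysis, fell by 0.91 ± 0.089, and the regulatory kinase gene PFKFB4 fell by 0.90 ± 0.13. ALDOC, an aldolase gene, fell to 2.81, below the median row, against 4.13 with DMSO. The glucose transporter gene SLC2A3 rose by 1.31 ± 0.18 but lay below the median row in both groups, and the hexokinase gene HK1 rose by 0.33 ± 0.086, a call lost with the replicate block and without any one well except the second DMSO well (limma adjusted p = 0.072 to 0.11). The list had 7 calls, 6 of them lower, without the second or the third E7386 well.

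Most carbonic anhydrases and regulators of pH were dim, with 4 of 17 measured genes above the median row. Of the 17, 1 rose and 1 fell, 11.8% in all, against 10.9% at like level and 18.6% over all rows. The cytosolic enzyme gene CA13 rose by 0.85 ± 0.13 to 4.08 with E7386, against 3.22 with DMSO (limma adjusted p = 0.0035). The mitochondrial enzyme gene CA5A fell to 1.84, against 2.54 with DMSO, a call lost in 6 of 12 alternative fits (limma adjusted p = 0.051 to 0.12). CA12, a membrane enzyme induced by HIF and named after its values were seen, lay at 2.61 in E7386 wells and 2.93 in DMSO wells, below the median row, and did not pass.

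**Figure D4:**
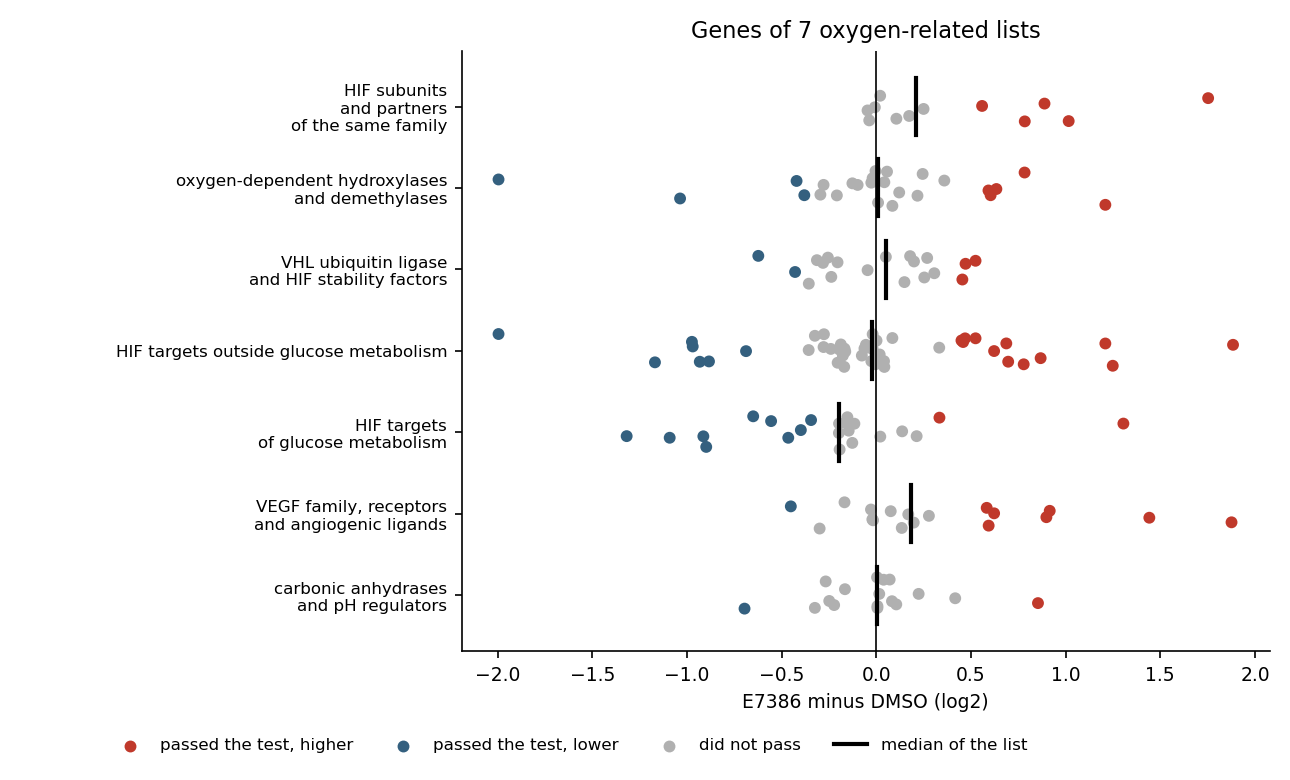
Difference E7386 minus DMSO (log2) of each measured gene in 7 lists of oxygen-related genes; points in red and blue passed the test as higher and lower, grey points did not pass, and black bars are list medians. The list of HIF subunits and related family genes has 5 red points and no blue one, and EPAS1 is the only HIF subunit among the red. The glucose metabolism list has 2 red points and 9 blue ones.

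Outside the members, the 7 lists hold 138 measured genes, of which 30 rose and 22 fell. That is 37.7%, against 24.8% at like level and 18.6% over all rows, with 98 of the 138 above the median row. No test of these shares was made, and the lists were chosen with earlier results of these data known.

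The pattern of EGLN3 over the 6 wells was set beside those of 10628 named genes above the median row. The likeness was the root mean square distance between log2 profiles, each centred on its own mean. The closest was ANKRD22, at 0.11, which fell by 2.08 ± 0.11 (SE). TMPRSS4, a membrane serine protease gene, followed at 0.12 and fell by 1.88 ± 0.13. VGLL1, a cofactor of TEAD transcription factors, was at 0.13 and fell by 2.04 ± 0.11. BIRC5, which encodes the mitotic protein survivin, was also at 0.13 and fell by 1.90 ± 0.10. With only 2 groups of wells, this distance mainly reflects a fall of like size.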

How the data were processed

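RNA from 6 wells was amplified over whole transcripts and labelled with biotin, per the labels' protocols. The deposited table holds log2 values made by the authors through RMA in affy 1.36.1, per the submitters' processing notes. RMA removes background, equalises the arrays' distributions and summarises probes, so a change in total RNA per cell is lost, and it gives no detection call. No source used here gives the probe definition. The platform annotation named 22458 of 23786 rows, and 1328 rows stayed in the fits unnamed.

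No further normalization was applied. Treatment was the only term in limma 3.58.1 (R 4.3.3), with empirical Bayes moderation, two-sided tests and Benjamini-Hochberg adjustment over the table; the fit was tested on simulated data. Members and gene lists were chosen with earlier results of these data known. All members were named, with up to 4 called, non-overlapping genes per list and direction and the 4 genes most like the called member with the largest difference; other genes were chosen after their values were seen. Within-well contrasts used exact permutation. Alternatives were 7 other fits and leaving out each of 6 wells.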

Additional observations from a re-analysis of the deposited data

How the results depend on the processing

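EPAS1, VEGFA and EGLN3 kept their calls and directions in all 13 alternatives, and ARNT, VHL, HIF1AN and EGLN1 were called in none. No gene named by the rule reversed direction in any alternative that measured it. The alternative fits called 3 or 4 members, the fourth being HIF1A. Over all rows, leaving out 1 well gave 2907 to 3635 calls, the lowest without the third E7386 well, against 4430. The main fit did not pair wells by replicate number. Deviations of same-numbered wells correlated at 0.051, 0.12 and -0.0077, and those of differently numbered wells at -0.098 to 0.041. With 3 wells per group these values cannot exclude a weak pairing. The replicate block gave 3701 calls over all rows and 3 among the members. The VHL ligase list had 9 calls with dim rows left out, 10 with an intensity trend and 10 with a robust trend, and 2 to 5 with 1 well left out, against 5. The carbonic anhydrase list had 1 call, against 2, with renewed quantile normalization and with the replicate block, and 1 to 2 with 1 well left out. With dim rows left out it also had 1 call, of another gene, since CA13 and CA5A were not tested there. The glucose metabolism list had 7 to 10 with 1 well left out, against 11. Leaving out dim rows or wells tests fewer genes or samples; the cause of the other changes was not tested. Signal near the median row limits EGLN3 with E7386 and VHL in both groups.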

Other observations

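Some rows near the members or tied to HIF were looked up after the results were known. HIF1A-AS2, an RNA antisense to the end of HIF1A, measured 5.91, 5.87 and 5.76 in the E7386 wells and 4.72, 5.61 and 5.61 in the DMSO wells. Its first DMSO well stood apart from the other two, and the difference of 0.54 ± 0.23 (SE) did not pass (limma adjusted p = 0.17).

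MIR210HG, the host transcript of the hypoxia-induced microRNA miR-210, measured 3.17, 3.04 and 2.90 in the E7386 wells and 3.89, 3.45 and 3.70 in the DMSO wells. It fell by 0.64 ± 0.13 (limma adjusted p = 0.015), with every E7386 well below every DMSO well and below the median row. The row of MIR210 itself measured 5.67, 5.51 and 5.47 in the E7386 wells and 5.44, 5.63 and 5.47 in the DMSO wells, overlapped and did not pass (limma adjusted p = 0.84). The mature microRNA was not measured separately.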
